A study of Rattus norvegicus with 8 samples.

Results

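The mitochondrial ribosomal proteins of rat liver were taken as every gene measured on the array whose symbol starts with Mrpl (large subunit) or Mrps (small subunit). The accession that the scanner files print for a probe was matched to RefSeq symbols, which gave 77 probes for 66 genes, 42 Mrpl and 24 Mrps, out of 18005 probes for 15168 named genes. Liver RNA had been measured on single-colour Agilent arrays, 1 for each of 8 samples. The high fat diet group held 5 samples from male rats aged 22 weeks after 14 weeks on the diet, labelled NAFLD (non-alcoholic fatty liver disease). The standard chow group held 3 samples from male rats of the same age after 14 weeks on chow. The labels give no strain, diet composition or further treatment, and nothing in them says whether any samples share an animal. The p-values therefore set the difference between diets against the spread of these samples only, and both may in part be technical. The series title asks which genes of glucose and lipid metabolism differ between fatty and normal liver, and the mitochondrial ribosome was compared on the same arrays.

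The mitochondrial ribosome (mitoribosome) translates the few messages of mitochondrial DNA, all of which encode core subunits of the respiratory chain and of ATP synthase. Its ribosomal RNAs come from mitochondrial DNA, but all of its proteins are encoded in the nucleus, made in the cytosol and imported. The small subunit binds the message and decodes it, and the large subunit forms the peptide bond and holds the exit tunnel. Hepatocytes are rich in mitochondria, where the oxidation of fatty acids and much of amino acid and urea metabolism take place.

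The 66 genes lay on 17 chromosomes of the GRCr8 assembly. RefSeq promoter windows, from 250 bases before to 50 bases after the start of the gene, were at hand for 54 of the 66. Each was searched on both strands for GCGCA, any base and GCGC in a row, the core of the site of nuclear respiratory factor NRF1, for CCGGAAG, a core bound by ETS factors such as GABP, and for AAGATGGC, the core of the YY1 site. These factors are known regulators of nuclear genes for mitochondrial proteins. The windows of Mrpl30, Mrpl36, Mrpl48, Mrpl57 and Mrps18a are shown because each holds matches of 2 kinds. They are the 5 of the 9 members with matches of at least 2 kinds whose matches all lie in the stretch printed. Each sequence runs 5′ to 3′ from 180 bases before to 30 bases after the start, and capitals mark the matches on either strand. The positions on GRCr8 are chr9:47621047-47621256 on the plus strand for Mrpl30, chr1:31795092-31795301 on the minus strand for Mrpl36, chr1:164351347-164351556 on the minus strand for Mrpl48, chr15:36086277-36086486 on the plus strand for Mrpl57 and chr9:22367351-22367560 on the minus strand for Mrps18a.
Mrpl30: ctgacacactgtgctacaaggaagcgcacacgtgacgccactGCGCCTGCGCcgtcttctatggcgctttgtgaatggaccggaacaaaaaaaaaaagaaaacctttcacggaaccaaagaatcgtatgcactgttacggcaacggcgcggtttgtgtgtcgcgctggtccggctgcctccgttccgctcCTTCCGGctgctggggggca
Mrpl36: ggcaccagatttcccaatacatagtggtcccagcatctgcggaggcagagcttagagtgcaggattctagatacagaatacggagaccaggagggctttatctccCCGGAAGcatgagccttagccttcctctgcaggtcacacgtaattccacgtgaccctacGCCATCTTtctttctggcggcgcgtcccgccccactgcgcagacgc
Mrpl48: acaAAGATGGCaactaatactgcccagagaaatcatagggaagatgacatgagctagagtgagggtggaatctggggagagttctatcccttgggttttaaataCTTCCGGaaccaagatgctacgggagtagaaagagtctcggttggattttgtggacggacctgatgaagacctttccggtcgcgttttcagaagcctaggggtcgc
Mrpl57: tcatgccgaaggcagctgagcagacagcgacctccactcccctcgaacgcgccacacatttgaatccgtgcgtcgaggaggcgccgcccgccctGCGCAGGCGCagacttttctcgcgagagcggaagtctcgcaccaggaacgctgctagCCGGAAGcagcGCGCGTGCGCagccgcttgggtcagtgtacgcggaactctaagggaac
Mrps18a: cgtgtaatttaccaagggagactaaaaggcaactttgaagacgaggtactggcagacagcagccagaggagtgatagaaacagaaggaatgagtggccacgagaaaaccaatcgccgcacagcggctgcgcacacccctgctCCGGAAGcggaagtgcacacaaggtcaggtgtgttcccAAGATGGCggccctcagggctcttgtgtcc

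In Mrpl30 the NRF1 match began 138 bases before the start and the ETS match lay 11 bases after it. Mrpl36 held an ETS match 75 bases and a YY1 match 16 bases before the start. Mrpl48 held a YY1 match 177 bases and an ETS match 76 bases before the start. Mrpl57 held 2 NRF1 matches, 86 and 18 bases before the start, on both sides of an ETS match at 29 bases. In Mrps18a the ETS match began 38 bases before the start and the YY1 match lay at the start itself.

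Over the 54 windows, 35.2% (19) held the ETS core, against 14.4% of the 10886 windows of all named features tested and 9.22% of all 27457 RefSeq windows. The YY1 core was in 22.2% (12), against 4.43% and 3.44%. The NRF1 core was in 16.7% (9), against 7.9% and 4.71%. At least 1 of the 3 kinds was present in 30 of 54 windows (55.6%), against 23.3% and 15.5%, and in 22 of 35 large subunit and 8 of 19 small subunit windows. In other motifs the members lay nearer to the tested features. The GC box GGGCGG was in 51.9% of member windows and 52.6% of those of tested features, the E-box CACGTG in 11.1% and 8.37%, and TATAAA in 13% and 10.6%. Median GC content was 56.2% for members and 58.7% for tested features. These shares describe the letters of the windows, not binding, and the arrays measured no factor on DNA.

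All values below are log2 signals relative to the 75th percentile of the array, called relative signal here, and a log2 fold change is the high fat mean minus the chow mean. Dim probes were filtered out: a probe needed 3 or more arrays, of either diet, with 0.5 or more of its spots marked well above background. The filter kept 76 of the 77 probes and all 66 genes, among 22871 features tested. The probe it removed was the second of Mrpl30, which was well above background on 0 arrays. Where a gene had several probes, the brightest by its mean over all arrays stood for it. Of the 66 genes, 65 were represented by a probe well above background on all 8 arrays. The exception was Mrpl10, whose brighter probe was marked as an outlier on high-fat 4 and has no value there. Between 79.1% and 92.8% of all probes were well above background on a high-fat array and between 66.9% and 71.8% on a chow array, and the number of arrays limits the precision. The arrays had been read in 3 scans, each with its own scan time, as on 1 slide each. High-fat 1 and 4 formed scan 1, high-fat 2, 3 and 5 scan 2, and the chow arrays scan 3. No scan held both diets, so scan and diet cannot be told apart, and scans 1 and 2 were compared within the high-fat group. Scans 2 and 3 were read on 1 day and scan 1 on a later day, so scans 1 and 2 also differ in day.

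Only 1 of the 66 genes passed the test between diets. Mrpl21, a large subunit protein with a bacterial counterpart of the same number, rose 1.63-fold on high fat. Most of the rest had small fold changes. The median over all members was −0.15 on the log2 scale and 50 of 66 lay below 0. With normexp background correction, however, the median of all features was −0.29 and most members lay above it. With quantile normalization added to normexp, 40 of 66 lay below the median of all features. The median standard error of a member was 0.16. In the limma test with Benjamini-Hochberg adjustment over all 22871 features at 0.05, 3.56% of all features passed (703 higher, 3.07%, and 112 lower, 0.49%), against 1.52% of the members. At an unadjusted p under 0.05, 10 members were lower (15.2% of members, 9.37% of features) and 3 were higher (4.55% of members, 10.8% of features). The split of passing features depends on the scaling: it was 798 higher and 294 lower after quantile normalization, 830 and 310 in the authors' deposited table, and 1038 and 1077 with normexp background and quantile normalization. RNA of whole liver cannot tell fewer cells of a type from less RNA per cell.

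**Figure D1:**
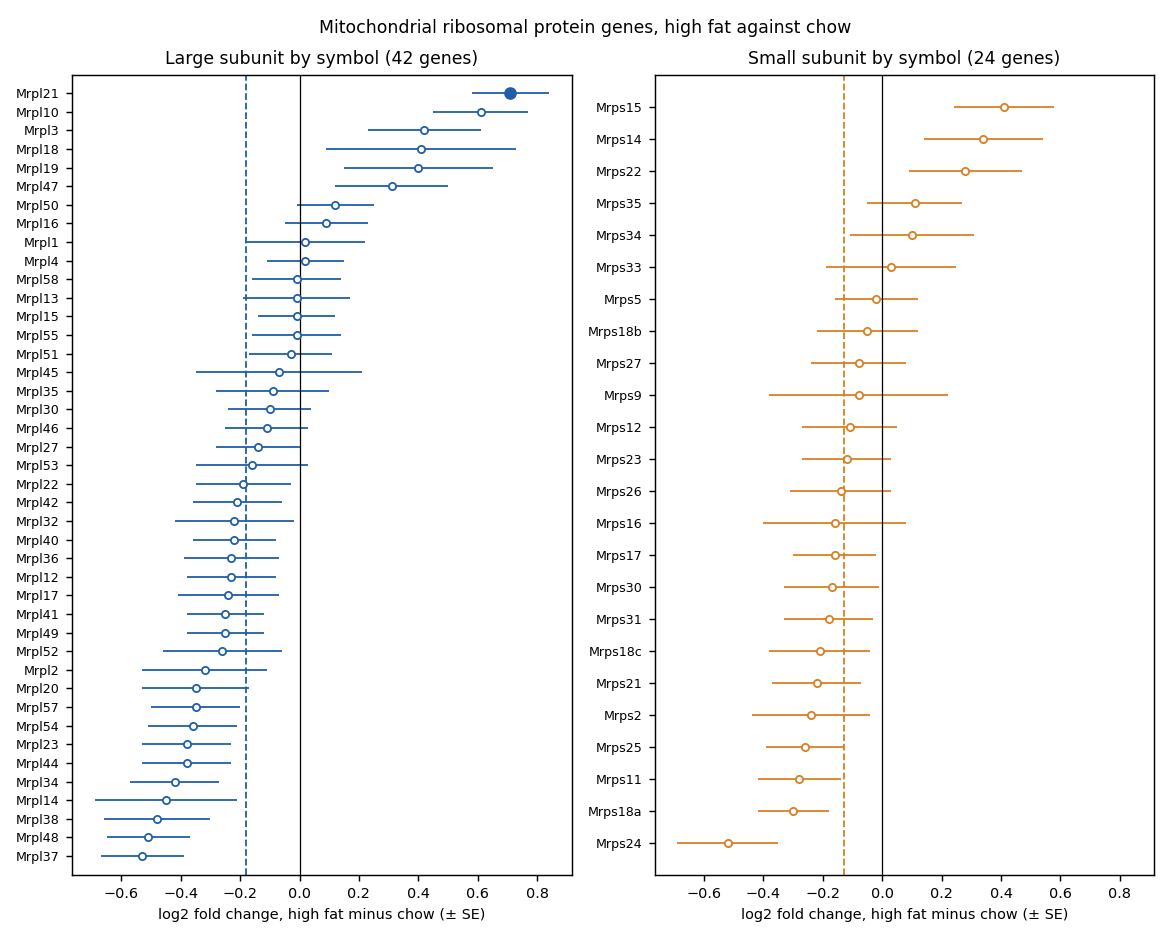
Log2 fold change of each gene, high fat minus chow, with its standard error, for the 42 Mrpl genes (left) and the 24 Mrps genes (right), ordered by fold change. The filled point, Mrpl21, is the only gene past the adjusted threshold, and the dashed lines mark the medians of −0.18 and −0.13.

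Mrpl21 read 0.09, 0.01, 0.17, 0.00 and −0.06 in the high fat samples, in order of replicate number, and −0.78, −0.66 and −0.54 in the chow samples. All high-fat values lay above all chow values, and the means of scan 1 and scan 2 were alike (0.04 and 0.04). The fold change was 0.71 ± 0.13 (SE, n = 5 and 3; limma adjusted p = 0.0254). The call was lost without high-fat 2 or 4 or any of the 3 chow arrays (adjusted p = 0.0516 to 0.114), with normexp background correction (0.48, adjusted p = 0.176), with scan as a random block (adjusted p = 0.42) and with the high-fat arrays of scan 1 alone (adjusted p = 0.0545). Quantile normalization kept it (adjusted p = 0.0162), as did the authors' deposited table (adjusted p = 0.0176).

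Mrpl10 is the counterpart of the bacterial protein that anchors the stalk, where translation factors dock. Its probe read 4.57, 4.64, 4.36 and 4.54 on high-fat 1, 2, 3 and 5 and 4.00, 3.72 and 4.04 on chow. The diets did not overlap, and the fold change of 0.61 ± 0.16 (SE, n = 4 and 3) had a limma adjusted p of 0.0885. The second Mrpl10 probe gave −0.39 ± 0.16, the opposite direction, with an adjusted p of 0.213 when all probes were fitted. The direction of this gene therefore depends on the probe. The mean of both probes gave 0.06, and the adjusted p of the first probe was 0.0138 after quantile normalization.

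Mrpl17, which has a bacterial counterpart near the exit tunnel, was the other gene whose probes disagreed. The probe used gave −0.24 ± 0.17 (limma adjusted p = 0.473). The other Mrpl17 probe read −0.12, −0.04, −0.14, −0.08 and 0.05 on high fat and −0.76, −0.52 and −0.83 on chow. Its diets did not overlap, with a fold change of 0.64 ± 0.14 and an adjusted p of 0.0425 in the fit of all probes. Named pseudogenes, which a probe can also detect, stood in the RefSeq table for 21 of the 66 genes, with 2 for Mrpl17 and 9 for Mrpl30, and their part in these values was not tested. Of the 10 genes with a pair of tested probes, 8 had the same sign on both. Mrpl41 gave −0.25 and −0.30, and Mrpl54 gave −0.36 and −0.34. Mrpl50 gave 0.12 and 0.93 and Mrpl35 gave −0.09 and −0.47, which is the same sign but not the same size.

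The other large subunit genes at the upper end did not pass. Mrpl3, a core protein next to the peptidyl transferase centre, had a fold change of 0.42 ± 0.19 (limma adjusted p = 0.261). Mrpl18, the counterpart of a bacterial protein of the central protuberance, read 2.80, 1.96, 1.69, 3.00 and 2.06 on high fat and 2.07, 1.96 and 1.64 on chow. Both scan 1 arrays of Mrpl18 were high, while the other 3 high-fat values lay within the chow range. Its fold change was 0.41 ± 0.32 (adjusted p = 0.519). Mrpl19, a protein with a bacterial counterpart at the subunit interface, read 2.07, 1.64, 1.01, 2.01 and 1.38 on high fat and 1.23, 1.26 and 1.18 on chow, and again the scan 1 arrays were highest. Its fold change was 0.40 ± 0.25 (adjusted p = 0.421). Against chow, the high-fat arrays of scan 1 alone gave 1.01 for Mrpl18 (limma adjusted p = 0.0397) and 0.82 for Mrpl19 (adjusted p = 0.0344). In that setting 8.66% of all features passed. The high-fat arrays of scan 2 alone gave 0.01 and 0.12.

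At the lower end stood Mrpl37 and Mrpl48, proteins found in mitochondrial but not in bacterial ribosomes. Mrpl37 read 2.40, 2.28, 2.00, 2.15 and 2.12 on high fat and 2.75, 2.64 and 2.78 on chow. Mrpl48 read 3.33, 3.27, 2.97, 3.05 and 3.24 on high fat and 3.68, 3.63 and 3.75 on chow. In both genes every high-fat value lay below every chow value, in either scan. The fold changes were −0.53 ± 0.14 for Mrpl37 (limma adjusted p = 0.086) and −0.51 ± 0.14 for Mrpl48 (adjusted p = 0.0924), so neither passed. Mrpl38, also specific to mitochondria, had −0.48 ± 0.18 (adjusted p = 0.19), and Mrpl34, which has a bacterial counterpart, −0.42 ± 0.15 (adjusted p = 0.163). With array weights, Mrpl37, Mrpl48, Mrpl38 and Mrpl34 passed (limma adjusted p = 0.0196, 0.0276, 0.0398 and 0.041). In that setting 16.5% of all features passed, against 3.56% without weights, and the 7 members passing also included Mrpl54, Mrpl10 and Mrpl21. Mrpl48 and Mrpl38 also passed with normexp background and quantile normalization (adjusted p = 0.0422 and 0.0318), where 9.25% of all features passed. Mrpl37 passed with scan 2 alone (adjusted p = 0.0421), where 12.7% of all features passed. Other settings gave smaller values without a call. Mrpl37 was −0.27 with normexp background (adjusted p = 0.307) and −0.23 with normexp background and quantile normalization. Mrpl34 was −0.21 and Mrpl48 −0.35 both with quantile normalization and in the authors' deposited table, and Mrpl38 was −0.28 with scan 1 alone.

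Mrpl14, a core protein at the subunit interface, read 4.05, 3.76, 3.28, 4.07 and 3.33 on high fat and 4.30, 3.88 and 4.26 on chow. The scan 1 arrays lay within the chow range and the scan 2 arrays below it. The fold change was −0.45 ± 0.24 (limma adjusted p = 0.328), and scan 1 alone gave −0.09.

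**Figure D2:**
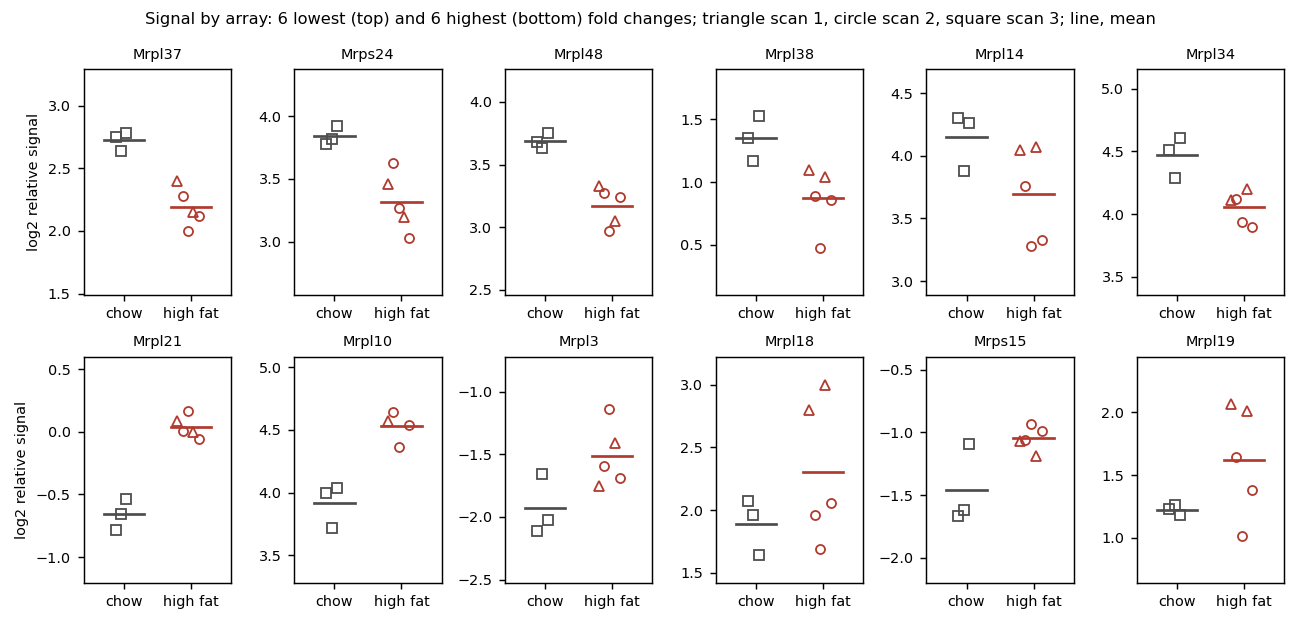
Relative signal (log2) on each array for the 6 genes with the lowest fold change (top) and the 6 with the highest (bottom), with chow on the left and high fat on the right of each panel; the line is the group mean and the marker shows the scan. The diets do not overlap in Mrpl37, Mrps24, Mrpl48, Mrpl38, Mrpl34, Mrpl10 and Mrpl21, and in Mrpl18 and Mrpl19 the triangles of scan 1 stand above the other arrays.

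Several large subunit proteins have known roles beyond the core. Mrpl12, part of the stalk and a known partner of the mitochondrial RNA polymerase, read 2.55, 2.36, 2.07, 2.50 and 2.40 on high fat and 2.62, 2.52 and 2.67 on chow. The diets overlapped, with a fold change of −0.23 ± 0.15 (limma adjusted p = 0.442). Mrpl58, a hydrolase related to release factors that frees stalled ribosomes, had −0.01 ± 0.15 (adjusted p = 0.99). Mrpl44, which carries a ribonuclease fold, read 1.97, 1.74, 1.56, 1.85 and 1.70 on high fat and 2.07, 2.04 and 2.35 on chow. Its diets did not overlap, and the fold change was −0.38 ± 0.15 (adjusted p = 0.208). Mrpl41, another mitochondria-specific protein, had −0.25 ± 0.13 (adjusted p = 0.338). Mrpl45, which lies at the exit tunnel and holds the ribosome to the inner membrane, had −0.07 ± 0.28 (adjusted p = 0.927), with 1.74 and 1.58 in scan 1 against 1.16, 0.63 and 0.68 in scan 2. Mrpl57 and Mrpl20, whose probes were among the brightest of the members, both had −0.35 (SE 0.15 and 0.18, adjusted p = 0.231 and 0.32).

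None of the 24 small subunit genes passed (limma; 2 lower and 1 higher at an unadjusted p under 0.05). Mrps24, a relative of a bacterial protein at the entry of the message channel, was the lowest. It read 3.46, 3.63, 3.27, 3.20 and 3.03 on high fat and 3.78, 3.82 and 3.92 on chow. The diets did not overlap, with a fold change of −0.52 ± 0.17 (adjusted p = 0.131). The highest was Mrps15, a core protein with a bacterial counterpart, which read −1.07, −1.06, −0.93, −1.19 and −0.99 on high fat and −1.67, −1.62 and −1.09 on chow. Chow 3 lay within the high-fat range, and the fold change was 0.41 ± 0.17 (adjusted p = 0.222).

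Mrps12, the counterpart of a bacterial protein that sets decoding accuracy, had a fold change of −0.11 ± 0.16 (limma adjusted p = 0.761). Mrps16, Mrps22 and Mrps34 are genes in which human mutations cause deficiency of the respiratory chain. Their fold changes were −0.16 ± 0.24 for Mrps16, 0.28 ± 0.19 for Mrps22 and 0.10 ± 0.21 for Mrps34 (adjusted p = 0.773, 0.462 and 0.851). In Mrps16 the scan 1 arrays read 4.25 and 4.36 and the scan 2 arrays 3.83, 3.34 and 3.75, above and below all of the chow values of 4.10, 3.95 and 4.13. The mammalian genome has several genes for relatives of a single bacterial protein, Mrps18a, Mrps18b and Mrps18c. Their fold changes were −0.30 ± 0.12, −0.05 ± 0.17 and −0.21 ± 0.17 (adjusted p = 0.223, 0.913 and 0.532). Mrps18a read 1.14 to 1.28 on the high-fat arrays and 1.42 to 1.56 on chow, without overlap. Structures place Mrps18a and Mrps30 in the large subunit despite their symbols, and Mrps30 had −0.17 ± 0.16 (adjusted p = 0.619).

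The large and small subunits had similar fold changes. The median fold change was −0.18 over the 42 Mrpl genes (quartiles −0.30 and −0.01) and −0.13 over the 24 Mrps genes (quartiles −0.22 and −0.01), beside −0.01 over all features. Of the Mrpl genes 32 were below 0, and of the Mrps genes 18. With Mrps18a and Mrps30 counted as large, the medians were −0.18 (44 genes) and −0.11 (22 genes). As 1 mean per array, relative to the mean of each gene over all arrays, the 41 large subunit genes with all values read 0.09, −0.04, −0.21, 0.07 and −0.13 on high fat and 0.08, 0.01 and 0.15 on chow. The 24 small subunit genes read 0.05, −0.04, −0.13, 0.05 and −0.09 on high fat and 0.03, 0.04 and 0.09 on chow. The order of the high-fat arrays was nearly the same in both, with high-fat 3 lowest and high-fat 1 and 4 highest, and the 2 highest high-fat values lay within the chow range. Group means were −0.05 ± 0.13 and 0.08 ± 0.07 for the large subunit and −0.03 ± 0.08 and 0.05 ± 0.03 for the small subunit (SD, n = 5 and 3). Large minus small was −0.01 ± 0.05 on high fat and 0.02 ± 0.05 on chow, a difference of −0.04 beside a pooled SD of 0.05, so the subunits did not differ beyond the spread between arrays. That difference changed sign, to 0.01 or 0.02, under 4 of the alternatives.

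**Figure D3:**
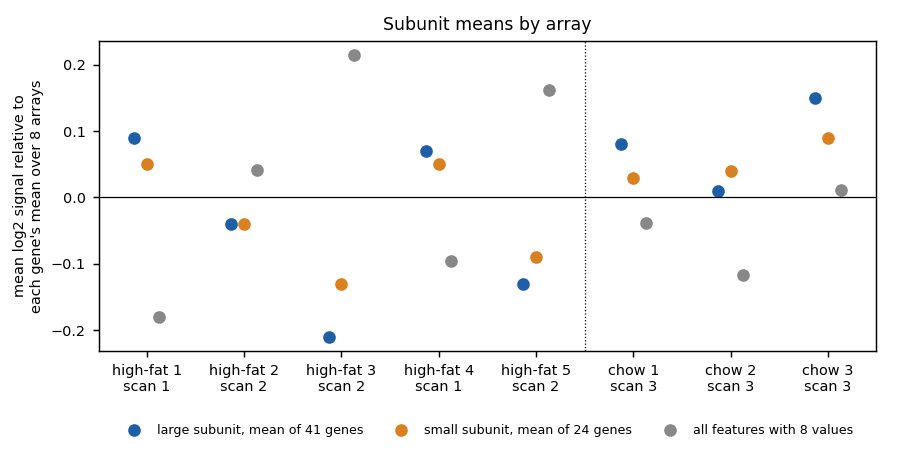
Mean log2 signal of the large and small subunit genes and of all features on each array, relative to the mean of each gene over all 8 arrays, with the scan under each array. The subunits move together, from 0.09 and 0.05 on high-fat 1 to −0.21 and −0.13 on high-fat 3. The mean of all features, dim ones included, moves the other way, from −0.18 to 0.22. Scan 1 minus scan 2 had a median of −0.86 in the dimmest decile of features by mean signal and 0.23 in the brightest. For the members in the brightest decile it was 0.28.

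On 14 members (10 large, 4 small) every high-fat value lay below every chow value, which is 21.2% of members, beside 9.17% of all features. Besides Mrpl37, Mrps24, Mrpl48, Mrpl38, Mrpl34, Mrpl44, Mrpl57, Mrps18a and Mrpl41 these were Mrpl23, Mrpl54, Mrps11, Mrps25 and Mrpl49. In the other direction 2 members did not overlap, Mrpl21 and Mrpl10, which is 3.03% beside 7.94%. A fold change below 0 was found for 75.8% of members and 50.5% of features. Under the alternatives 37 to 52 members were below 0. With the processing used for the values above, 49 of the 66 lay below the median of all features. That count was 13 with normexp background correction but 40 with normexp background and quantile normalization. It was 39 with quantile normalization alone, 41 in the authors' deposited table, 23 with scan 1 alone and 56 with scan 2 alone.

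The fold change of a feature moved with its signal on these arrays. Across deciles of features ordered by mean signal, the median fell from 0.51 in the dimmest to −0.24 in the brightest decile. All 66 members lay in deciles 6 to 10. Within those 5 deciles the median fold change of the members was 0.28 (n = 5), −0.05 (n = 9), −0.09 (n = 11), −0.14 (n = 21) and −0.23 (n = 20). The medians of all features in the same deciles were 0.02, −0.04, −0.08, −0.14 and −0.24. Measured from the median of its own decile, the median member stood at 0.01, and 31 of 66 members (47%) lay below it. The large subunit stood at 0.01 (19 of 42 below) and the small subunit at −0.00 (12 of 24 below). Fold change and mean signal correlated at a Pearson r of −0.40 across the 66 members and −0.30 across all features, genes that share the same 8 arrays.

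**Figure D4:**
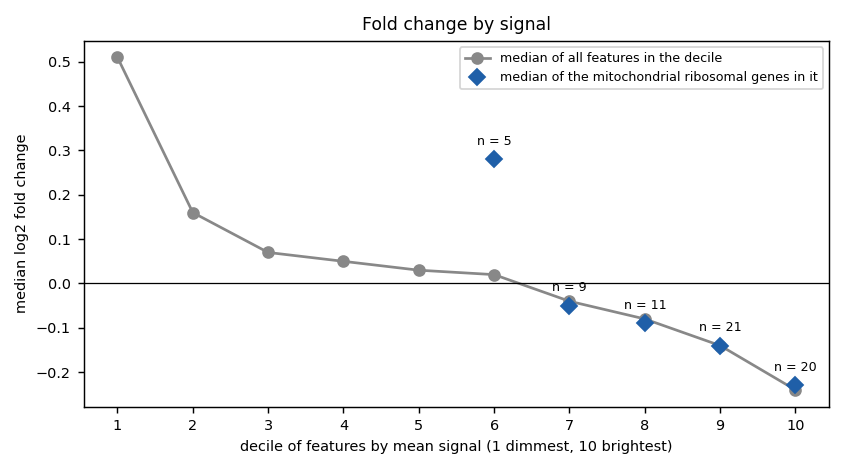
Median log2 fold change of all features (line) and of the mitochondrial ribosomal genes (diamonds, with their number) in each decile of features by mean signal. From decile 7 upward the diamonds lie on the line of all features, and in decile 6 the 5 members stand at 0.28 against 0.02.

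Between the scans of the high-fat group the members differed by about as much as between diets. Scan 1 minus scan 2 had a median of 0.17 over the members (51 of 66 above 0, with 0.19 large and 0.12 small), against −0.14 over all features. This gap also moved with signal: its median over features was −0.86 in the dimmest decile and 0.23 in the brightest. Measured from the median of its own decile, the gap of the median member was 0.03 (0.03 large, 0.07 small). The shares of features below are over all signal levels. Both scan 1 arrays lay above all 3 of scan 2 in 32 members (48.5%, beside 21.1% of features) and below them in 4 (6.06%, beside 37.9%). The largest gaps were 1.00 in Mrpl18, 0.83 in Mrpl45 and 0.70 in Mrpl19. Against chow, scan 1 alone gave medians of −0.06 for the large and −0.02 for the small subunit, and scan 2 alone −0.24 and −0.22. Among the 5 high-fat arrays, without chow, 33 of the 65 members with all values were lowest on high-fat 3 (50.8%, beside 19.4% of features) and 27 were highest on high-fat 1 (41.5%, beside 13.7%). High-fat 3 was also the array with the most probes well above background, 92.8%. Without high-fat 3, 45 members were below 0 and the medians were −0.13 and −0.09. The part of scan and depth in the diet difference was not tested.

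The proteins of the mitoribosome that carry other symbols were all below 0, but none of these 5 passed (limma, 2 lower at an unadjusted p under 0.05). Measured from the median of its signal decile, the median of the 5 stood at −0.22, with 4 of 5 below. Dap3, a GTP-binding protein of the small subunit head, had −0.20 ± 0.14 (limma adjusted p = 0.448), Ptcd3 −0.16 ± 0.22 (adjusted p = 0.761) and Chchd1 −0.25 ± 0.19 (adjusted p = 0.505). Aurkaip1 had −0.56 ± 0.21 with chow 1 missing (adjusted p = 0.2, n = 5 and 2), and Gadd45gip1, a large subunit protein, −0.51 ± 0.16 (adjusted p = 0.126). Gadd45gip1 read 1.03 to 1.31 on high fat and 1.38 to 1.90 on chow, without overlap.

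Of 27 factors that assemble the mitoribosome or modify its RNA, 23 were tested, with a median of −0.02 and 12 below 0. In limma 1 of the 23 passed, beside 3.56% of all features. At an unadjusted p under 0.05, 4 were higher and 5 lower, beside 10.8% and 9.37% of all features. Nsun4, a methyltransferase for mitochondrial ribosomal RNA that acts in subunit assembly, read −0.36, −0.71, −0.82, −0.55 and −1.01 on high fat and −1.73, −1.75 and −1.46 on chow. All high-fat values were above all chow values, and Nsun4 rose by 0.95 ± 0.18, or 1.93-fold (limma adjusted p = 0.0272). Whether its call holds under other ways of processing was not examined. Mterf3, which acts on mitochondrial transcription and ribosome assembly, had −0.66 ± 0.15 (adjusted p = 0.0558).

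None of 13 tested mitochondrial translation factors and related proteins passed (limma, median −0.20, 10 below 0). None passed among 17 genes for charging mitochondrial tRNA either (median −0.12, 12 below 0). These were tRNA synthetases together with Gatc and Qrsl1, which are not synthetases. In each list, 1 gene was lower at an unadjusted p under 0.05. Tufm, the elongation factor that brings charged tRNA to the ribosome, had −0.38 ± 0.15 (limma adjusted p = 0.209), and Lrpprc, which stabilises mitochondrial messages, −0.06 ± 0.18 (adjusted p = 0.884). None of 18 genes of mitochondrial transcription, mitochondrial DNA replication and their control passed in limma (median −0.13, 12 below 0, 2 lower at an unadjusted p under 0.05). The replication genes Polg, Polg2, Twnk and Ssbp1 were among those 12. Ppargc1b, 1 of the 18, passed the filter on dim probes through high-fat arrays alone. Polrmt, the mitochondrial RNA polymerase, read 1.14, 1.04, 1.04, 0.89 and 0.91 on high fat and 1.54, 1.40 and 1.69 on chow, without overlap (−0.54 ± 0.14, adjusted p = 0.0767). Tfam, which packages mitochondrial DNA and starts its transcription, had 0.13 ± 0.15 (adjusted p = 0.701). Nrf1 had −0.28 ± 0.18 and Gabpa −0.13 ± 0.19 (adjusted p = 0.437 and 0.761). The coactivator gene Ppargc1a was well above background on 0 arrays and was not tested. Across the 54 members with a promoter window, the median fold change was −0.21 for the 30 with an NRF1, ETS or YY1 match (27 below 0) and −0.14 for the 24 without (17 below 0).

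The partners of the mitoribosome in the respiratory chain and ATP synthase had a median of −0.29 (61 of 72 below 0, 1 lower and 1 higher past the limma threshold, 23 lower and 2 higher at an unadjusted p under 0.05). The cytosolic ribosomal proteins had a median of −0.22 (64 of 79 below 0, 2 lower past the limma threshold, 17 lower at an unadjusted p under 0.05). The 79 include Rps12l4, which passed the filter on dim probes through high-fat arrays alone and is given no direction here. Of all features, 9.37% were lower and 10.8% higher at that unadjusted p. Measured from the median of their signal decile, the respiratory chain and cytosolic ribosomal medians were −0.05 and 0.02, beside 0.01 for the mitochondrial ribosomal proteins. The 8 hepatocyte markers were all well above background on all arrays. They too were all below 0 (median −0.47, none passing in limma, 4 lower at an unadjusted p under 0.05), with a mean level of 5.61 to 5.95 on high fat and 5.87 to 6.34 on chow. Measured from the median of its signal decile, the median hepatocyte marker stood at −0.23, with 7 of 8 below. Of the markers of other liver cells, those of Kupffer cells had a median of 0.24 (6 genes), of endothelium −0.12 (4 genes), of stellate cells −0.53 (5 genes) and of cholangiocytes −0.01 (4 genes), and none of these genes passed in limma. Measured from the signal deciles, these medians were, in that order, 0.25, 0.07, −0.52 and −0.13. At an unadjusted p under 0.05, 1 Kupffer cell and 3 stellate cell markers were lower and 1 stellate cell marker was higher. The markers of lymphocytes, adipocytes, acinar pancreas and skeletal muscle are given by level only, since Cd3e, Lep, Prss1, Amy2a3, Acta1 and Ckm passed the filter on dim probes through high-fat arrays alone. The mean level was −2.62 to −2.23 on high fat and −2.53 to −1.69 on chow for lymphocytes, and −3.73 to −1.98 and −3.03 to −2.79 for adipocytes. For acinar pancreas it was −5.21 to −3.58 and −4.76 to −4.37. Acta1 read −5.04 to −3.66 on high fat and −6.42 to −5.62 on chow, and Ckm −3.68 to −2.80 and −5.14 to −4.88, and neither was well above background on any chow array. The part of these other cells in the values of the mitochondrial ribosomal proteins was not tested.

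**Figure D5:**
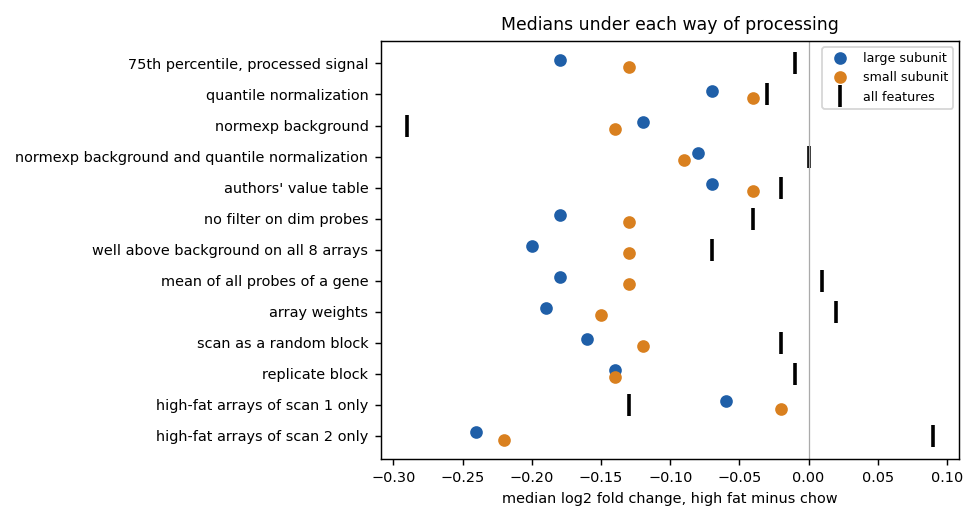
Median log2 fold change of the large subunit, the small subunit and all features under each way of processing the arrays. The subunits lie close together under each, below 0 throughout. They lie above all features with normexp background alone and with the high-fat arrays of scan 1 alone, and below all features in the other settings shown.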

How the data were processed

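Probe signals were measured on 8 single-colour arrays. Per the submitters' processing notes, scans were read with Agilent Feature Extraction 11.0.1.1. Per the file headers, the processed signal is an intensity, background-subtracted and detrended within the array but not scaled between arrays; the median signal and local background intensity are given too. The authors' deposited value table holds log2 values whose making is not given in the sources used here; it served as an alternative. Groups and replicate numbers came from the titles, and 0 of 28 array pairs were identical.

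Outlier-marked spots (331 to 550 per array) were left out, and 0 spots were saturated. Spots were averaged as log2 signal, each array's 75th percentile was taken off, and diets were compared with limma 3.58.1 in R 4.3.3 (lmFit and eBayes, two-sided, no covariate, Benjamini-Hochberg over 22871 features). The code was also run on simulated arrays with independent noise and no scan effect. That run cannot show the error rate on these arrays, where each scan held a single diet. RefSeq lists 78 protein-coding Mrpl and Mrps symbols; the other 12, among them Mrps6, Mrps7 and Mrpl28, were not analysed here. Coordinates are given only for printed RefSeq GRCr8 sequences, since the array design uses another assembly.

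The members and lists were chosen with earlier results of these data known. Named members are those with adjusted p under 0.05, the 6 highest and 6 lowest fold changes, genes whose probes disagree in sign, the 3 highest mean levels, the 3 largest scan gaps and 12 genes of known role; others were named as the whole of a small count or as examples chosen after their values were seen.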

Additional observations from a re-analysis of the deposited data

How the results depend on the processing

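The count of members passing (1) became 2 with quantile normalization, the authors' deposited table, scan 1 alone (Mrpl18 and Mrpl19) and scan 2 alone (Mrpl21 and Mrpl37). In these settings, in that order, 4.77%, 4.98%, 8.66% and 12.7% of all features passed. The member count became 7 with array weights (16.5% of all features passing) and with normexp background and quantile normalization (9.25%). It became 0 with normexp background (0.651%) and with scan as a random block (84 features passing at a correlation of 0.45). With single arrays left out it was 0 to 1. Deviations of same-numbered arrays correlated at 0.03 to 0.07. These values cannot decide whether the numbers pair the samples, since the labels do not say and no scan held both diets. The replicate block gave 0 members and 4 features, and Mrpl21 at 0.75 (limma adjusted p = 0.234). The large subunit median moved to −0.06 with scan 1 alone, −0.07 with quantile normalization and the authors' table and −0.08 with normexp background and quantile normalization, and with arrays left out it ran from −0.22 to −0.12. The small subunit median moved to −0.04 with quantile normalization and the authors' table, −0.02 with scan 1 alone and −0.22 with scan 2 alone, and ran from −0.17 to −0.09 with arrays left out. Large minus small reversed to 0.01 (normexp background, with or without quantile normalization, and scan 1 alone) and 0.02 (the authors' table), and ran from −0.07 to −0.02 with arrays left out. The cause was not tested. Of 560 values of the 28 named members under the alternatives, 35 had the opposite sign, none of them past the threshold on either side. With normexp background the signs turned in Mrpl45 (0.06), Mrpl58 (0.06), Mrps12 (0.15), Mrps16 (0.01) and Mrps18b (0.04), and with quantile normalization as well in Mrpl45 (0.04), Mrpl58 (0.15), Mrps12 (0.16), Mrps16 (0.09) and Mrps18b (0.04). Quantile normalization alone and the authors' table turned Mrpl58 (0.20 in both) and Mrps16 (0.03 in both). Scan 1 alone turned Mrpl45 (0.43), Mrpl58 (0.14), Mrps12 (0.09), Mrps16 (0.24), Mrps18b (0.04) and Mrps30 (0.02), and scan 2 alone turned Mrps34 (−0.10). Mrpl58 was 0.01 with scan as a random block and 0.03 with the replicate block. Mrpl10 was −0.39 with probes above background on all arrays, and Mrpl17 0.20 with the mean of its probes. With arrays left out, Mrpl45 ran from −0.21 to 0.06, Mrpl58 from −0.10 to 0.05, Mrps18b from −0.15 to 0.07 and Mrps34 from −0.01 to 0.22. All features passing were 815, against 149 with normexp background, 2115 with it and quantile normalization, 3773 with array weights and 486 with probes above background on all arrays. The count below 0 was added after seeing the data; it was 45 to 52 with arrays left out.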
